A study of Homo sapiens with 4 samples.

Results

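Pyruvate entry into mitochondria was described through 10 genes of the 12912 in a table of raw RNA-seq counts: the pyruvate dehydrogenase kinases PDK1, PDK2, PDK3 and PDK4, the pyruvate dehydrogenase phosphatase PDP1, the enzyme subunits PDHA1, PDHB and DLAT, and the mitochondrial pyruvate carriers MPC1 and MPC2. The genes were picked by symbol, and all 10 were found and passed the filter on low counts. 786-O is a human clear cell renal carcinoma cell line without functional VHL, the substrate receptor of a ubiquitin ligase that marks the alpha subunits of hypoxia-inducible factors (HIF) for degradation. The comparison asked how the transcriptome changed when VHL was put back: 2 libraries of 786-O-Ctrl, labelled VHL-null, were set against 2 libraries of 786-O-VHL, the subline given HA-tagged VHL by a retroviral vector. Both sublines carried a triple reporter of GFP, luciferase and thymidine kinase and were grown in RPMI1640 with serum. Each group was a single subline. The sources used here do not give the vector of 786-O-Ctrl or say whether the sublines were clones, so VHL and other differences between the sublines cannot be told apart. The labels do not say that the libraries of a group came from separate cultures, so p-values measure the spread between libraries, which may be technical.

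Pyruvate made by glycolysis is carried across the inner mitochondrial membrane by a heteromer of MPC1 and MPC2. The pyruvate dehydrogenase complex then turns it into acetyl-CoA: its E1 enzyme, built from PDHA1 and PDHB, releases carbon dioxide, and its E2 enzyme, DLAT, passes the acetyl group to coenzyme A. The PDK enzymes phosphorylate PDHA1 and stop the complex, and PDP1 removes the phosphate; PDK1 is a well-known HIF target gene, and 786-O is known for HIF-2alpha without functional HIF-1alpha.

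Depth was 22141263 and 15714166 counts for the deeper and shallower libraries of 786-O-Ctrl, but 2807779 for replicate 1 of 786-O-VHL beside 16114120 for replicate 2. Both 786-O-Ctrl columns carry the same replicate number and are therefore named by depth. VHL itself measured 42.9 and 43.9 CPM (counts relative to the size of the library, scaled by TMM, a factor that corrects for RNA composition) in 786-O-Ctrl against 178 and 163 CPM in 786-O-VHL, which goes with the labels. Of 7 markers of renal epithelium and renal carcinoma lines, all were present and 5 were called lower in 786-O-VHL, beside 31.9% of all genes. PAX8 measured 277 and 272 CPM in 786-O-Ctrl against 166 and 137 CPM in 786-O-VHL. Of 10 markers of other cell types, 4 had an entry in the table, none above 3.09 CPM, and their summed level was 4.46 and 3.26 CPM in 786-O-Ctrl against 3.73 and 2.85 CPM in 786-O-VHL. A fall in RNA per cell and a smaller share of cells expressing a gene cannot be told apart in bulk RNA.

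The starts of these genes are shown because the core letters of a HIF binding site, ACGTG or GCGTG, can be read in them. Windows of 250 bases before to 50 after the annotated start (RefSeq, GRCh38.p14 table, placed in GRCh37 by exact match) were searched on both strands for 9 of the 10 genes. At the canonical start, ACGTG was found in 5 of the 9 (PDK1, PDK2, PDK3, PDHB and DLAT) and GCGTG in 7. Some genes have several annotated starts: counted by window, ACGTG was in 5 of the 14 windows of these genes and in 21.4% of all 35116 windows of this length, and GCGTG in 8 of the 14 and in 36.5% of all windows. Windows at neighbouring starts can overlap, and the same GCGTG site of MPC2 was counted in overlapping windows. The other windows of PDK1 and PDK2 held neither ACGTG nor GCGTG. PDK4 held neither. The pieces below have 30 bases each and lie in the promoter on the strand of the gene, 5′ to 3′, with ACGTG or its reverse complement CACGT in capitals; CACGTG holds overlapping matches on both strands and is also the letters of an E-box. A match is a description of the letters and not a bound site. The PDK1 piece (chr2:173420788-173420817, plus strand) ends at the base before its canonical start and overlaps exons of longer PDK1 transcripts. The PDK2 piece is chr17:48172573-48172602 (plus), that of PDK3 chrX:24483329-24483358 (plus), DLAT chr11:111896084-111896113 (plus) and PDHB chr3:58419779-58419808 (minus).
PDK1: ccctgctgcccgcCACGTccctCACGTacc
PDK2: gcccgggggaagcCACGTGccggggcggaa
PDK3: tcgcgcgccgcgtACGTGcagcaaccgact
DLAT: ccattttacgacaACGTGcggctgtgcggt
PDHB: aacaccgaccaggCACGTGtgcccagcgtg

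In 786-O-VHL, PDK2, PDK4, PDP1 and MPC1 were higher and PDK1, PDK3, DLAT and MPC2 were lower, while PDHA1 and PDHB did not pass the test. Among the kinases, PDK1 fell to 58.3% of its 786-O-Ctrl level while PDK2 rose 2.07-fold and PDK4 3.45-fold. The phosphatase PDP1 rose 1.96-fold. Each gene was tested by quasi-likelihood in edgeR, with Benjamini-Hochberg adjusted p-values over 12335 genes, and called at an adjusted p under 0.05. With 8 of 10 called, the share has to be read against the 64.5% of all genes called in this comparison, 32.6% higher and 31.9% lower. None of the 10 passed a 4-fold change at an adjusted p under 0.01, which 4.46% of all genes did. The median log2 fold change of the 10 genes was -0.066 and that of all genes tested 0.017. An exact permutation test of 2 against 2 libraries cannot go below a two-sided p of 0.33 and was not used. Analyses were repeated under 12 alternative settings: other scalings (RLE factors, library totals alone), other tests (DESeq2, limma-voom), other filters, thinning of every library to the depth of the shallowest by edgeR's thinCounts or by binomial draws, and each library left out. PDP1 alone kept its direction and its call under all 12. PDK1, PDK2 and DLAT kept both under 11. Under thinCounts these 3 kept their direction but lost their call (edgeR adjusted p = 0.0823, 0.152 and 0.107). The common dispersion was 0.0396 under thinCounts against 0.00227 under binomial draws. PDK4 kept its call under the 11 settings that gave it a value and was filtered out under thinCounts. Binomial draws were added after the thinCounts result had been seen. The calls of PDK3, MPC1 and MPC2 were also lost under other settings.

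**Figure D1:**
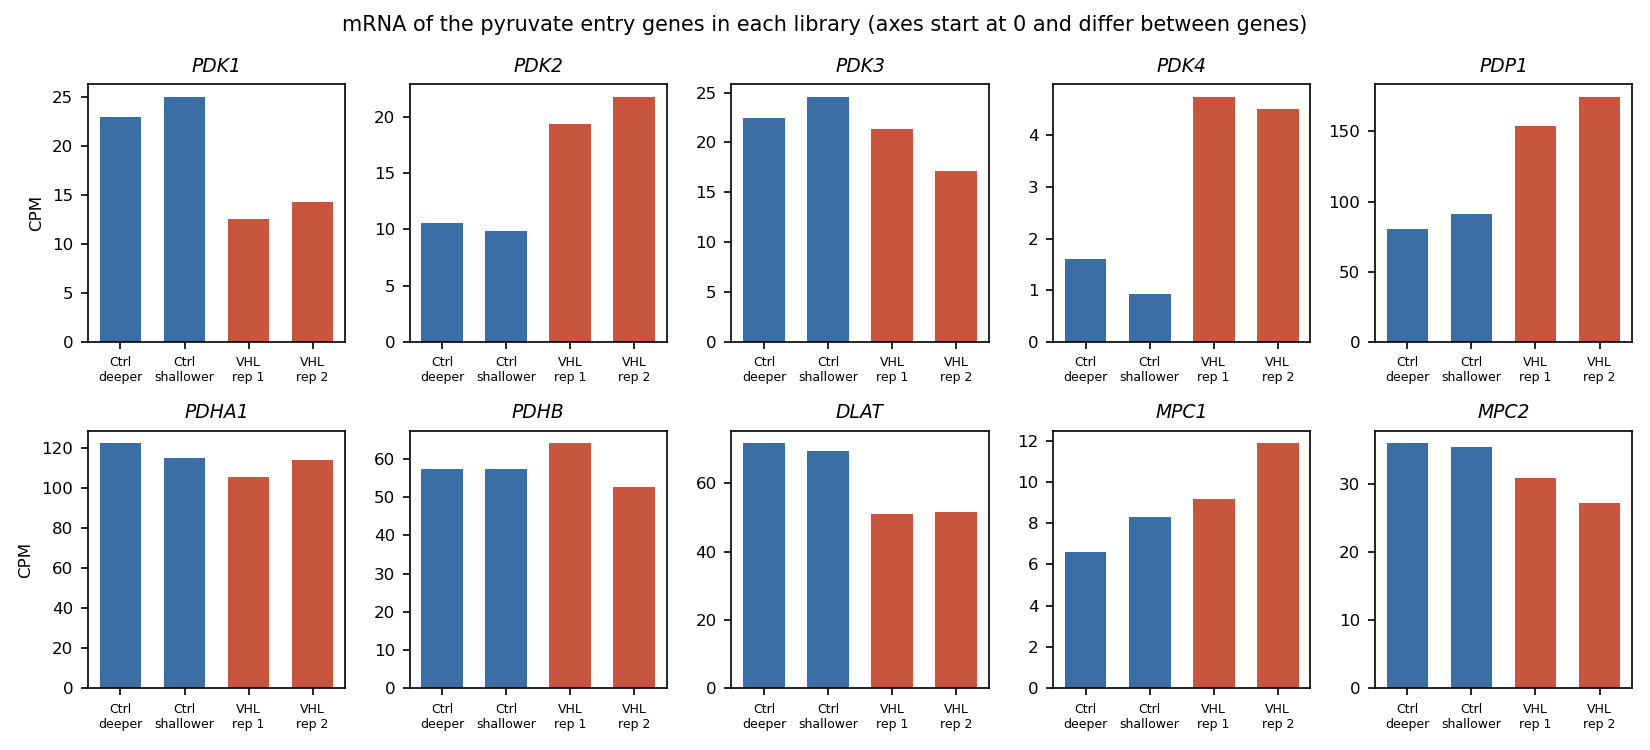
mRNA level (CPM, scaled by TMM) of the 10 pyruvate entry genes in each of the 4 libraries, 1 bar per library, with 786-O-Ctrl in blue and 786-O-VHL in red and a separate axis from 0 for each gene. PDK1 sits at 22.9 and 25.0 CPM in 786-O-Ctrl against 12.5 and 14.2 CPM in 786-O-VHL, PDK2, PDK4 and PDP1 are higher in each 786-O-VHL library, and PDHB overlaps between the groups.

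PDK1 (ENSG00000152256.13, chr2:173420101-173473397, plus strand, GRCh37) is the PDK isoform classically induced under low oxygen. It was counted 482 and 376 times in the 786-O-Ctrl libraries and 37 and 240 times in those of 786-O-VHL, or 22.9 and 25.0 CPM against 12.5 and 14.2 CPM. Both 786-O-VHL libraries were below both 786-O-Ctrl libraries, as the plot of CPM by library shows. The log2 fold change was -0.78 (SE 0.131, 95% interval -1.05 to -0.51, edgeR adjusted p = 7.87e-06), and 11.9% of all genes tested had a lower one. An antisense gene, PDK1-AS1, shares 445 exon bases with PDK1 (3.0% of its exons) and was not analysed here. The 3 genes whose centred log2 CPM lay nearest to PDK1 over the 4 libraries were LPXN (distance 0.0195), FLVCR1 (0.0321) and BARD1 (0.0348), with log2 fold changes of -0.77, -0.81 and -0.76.

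PDK2 (ENSG00000005882.11, chr17:48172101-48189516, plus strand) is the most widely expressed isoform. Its counts were 222 and 148 in 786-O-Ctrl against 57 and 367 in 786-O-VHL, or 10.54 and 9.83 CPM against 19.3 and 21.8 CPM. The groups did not overlap, and replicates differed far less than groups. PDK2 rose by 1.05 on the log2 scale (SE 0.141, 95% interval 0.76 to 1.34, edgeR adjusted p = 2.37e-07), and 90.5% of genes had a lower one. SAMD14, on the opposite strand, shares 2113 exon bases with PDK2 (38.6% of its exons). SAMD14 itself measured 0.760 and 1.06 CPM in 786-O-Ctrl against 2.37 and 1.25 CPM in 786-O-VHL. The sources used here do not say how the counting used strand, and the part of shared reads in the PDK2 value was not tested.

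PDK3 (ENSG00000067992.15, chrX:24483361-24568583, plus strand) is the isoform of highest activity towards E1 and is little inhibited by pyruvate. It measured 22.4 and 24.6 CPM in 786-O-Ctrl against 21.4 and 17.1 CPM in 786-O-VHL. The groups did not overlap, but the upper 786-O-VHL library lay closer to the lower 786-O-Ctrl library than to the other 786-O-VHL library. PDK3 had a log2 fold change of -0.38 (SE 0.128, edgeR adjusted p = 0.0119). Its call was lost without replicate 2 of 786-O-VHL (-0.14 on the log2 scale, adjusted p = 0.599) and without the shallower 786-O-Ctrl library (-0.30, adjusted p = 0.165), with library totals alone, with DESeq2 and under both forms of thinning.

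PDK4 (ENSG00000004799.8, chr7:95212811-95225828, minus strand) is the isoform induced by fasting and by fatty acids. It was counted 34 and 14 times in 786-O-Ctrl against 14 and 76 times in 786-O-VHL, or 1.61 and 0.930 CPM against 4.75 and 4.51 CPM. This was the least counted of the 10 genes, and 3 counts correspond to 1.02 CPM in replicate 1 of 786-O-VHL. PDK4 rose by 1.79 on the log2 scale (SE 0.33, 95% interval 1.10 to 2.47, edgeR adjusted p = 3.35e-05). It was the largest change among the 10, and 96.3% of all genes tested had a lower one. Its 11 alternative estimates ran from 1.49 to 2.28, all called, with none under thinCounts.

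Relative to PDK1, the other kinases had more counts in 786-O-VHL than in 786-O-Ctrl. Within a library, where depth cancels, there were 0.461 and 0.394 PDK2 counts per PDK1 count in 786-O-Ctrl against 1.54 and 1.53 in 786-O-VHL, a ratio of means of 3.59. PDK4 counts per PDK1 count were 0.0705 and 0.0372 against 0.378 and 0.317, a ratio of means of 6.45. Neither ratio overlapped between groups, which follows from PDK1 being lower and PDK2 and PDK4 higher in both 786-O-VHL libraries. PDK3 per PDK1 did not overlap either, at 0.979 and 0.984 against 1.70 and 1.20, although PDK3 itself was lower in 786-O-VHL.

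Summed over the 4 kinases, the level per kilobase of canonical transcript was 18.1 and 19.1 CPM per kilobase in 786-O-Ctrl against 20.2 and 18.6 in 786-O-VHL, which overlapped. On that scale PDK1 took 9.15% ± 0.22 (SD, n = 2) of the sum in 786-O-Ctrl against 4.93% ± 0.740 in 786-O-VHL, and PDK4 1.92% ± 0.796 and 6.63% ± 0.164. PDK2 took 16.3% ± 1.42 and 31.6% ± 4.58, and PDK3 72.6% ± 2.0 and 56.8% ± 5.49. Which kinase led depended on the length used: the canonical transcript of PDK3 has 1741 bases and all its annotated exons 17456, against 14072 and 14845 for PDK1. Per kilobase of all annotated exons PDK2 led in both groups, with 36.5% and 55.4%, and the summed level was 5.11 and 5.09 in 786-O-Ctrl against 6.65 and 6.92 in 786-O-VHL. Without division by length PDK1 had the largest mean share in 786-O-Ctrl with 40.6%, close to PDK3 with 39.9%. In 786-O-VHL the largest mean share was that of PDK2 with 35.6%, but in replicate 1 PDK3 led with 36.8% against 33.3% for PDK2. The mean shares of PDK1 and PDK3 were lower and those of PDK2 and PDK4 higher in 786-O-VHL on all 3 scales. These shares are a description without a test.

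**Figure D2:**
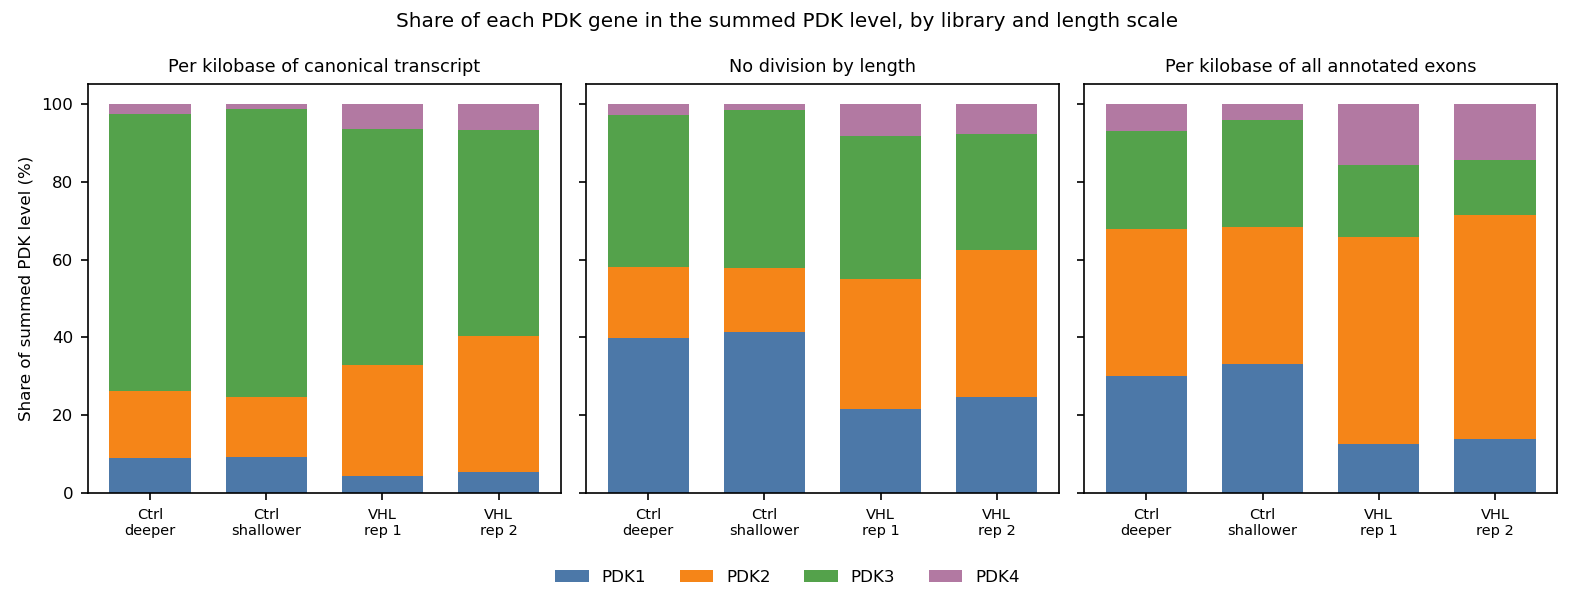
Share (%) of PDK1, PDK2, PDK3 and PDK4 in the summed PDK level of each library, per kilobase of canonical transcript, without division by length, and per kilobase of all annotated exons. The PDK1 share is lower and the PDK2 and PDK4 shares are higher in both 786-O-VHL libraries on every scale, while the leading kinase differs between scales.

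PDP1 (ENSG00000164951.16, chr8:94870035-94938296, plus strand) is the calcium-stimulated phosphatase that reactivates the complex, acting against the kinases. It was counted 1693 and 1375 times in 786-O-Ctrl against 454 and 2942 times in 786-O-VHL, or 80.4 and 91.4 CPM against 154 and 175 CPM. The lower 786-O-VHL library was well above the higher 786-O-Ctrl library. The rise was 0.97 on the log2 scale (SE 0.0727, 95% interval 0.82 to 1.12, edgeR adjusted p = 2.53e-12), the smallest p of the 10 genes. Estimates under the 12 alternatives ran from 0.66 to 1.10, all called. PDP1 counts per count of PDHA1, which codes for the subunit it dephosphorylates, were 0.656 and 0.794 in 786-O-Ctrl against 1.46 and 1.53 in 786-O-VHL.

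The E1 subunits did not pass the test. PDHA1 (ENSG00000131828.13, chrX:19362011-19379836, plus strand) measured 123 and 115 CPM in 786-O-Ctrl against 106 and 114 CPM in 786-O-VHL, with a log2 fold change of -0.090 (SE 0.0680, 95% interval -0.23 to 0.05, edgeR adjusted p = 0.251). PDHB (ENSG00000168291.13, chr3:58413357-58419584, minus strand) measured 57.3 CPM in each 786-O-Ctrl library against 64.1 and 52.8 CPM in 786-O-VHL, with a log2 fold change of -0.043 (SE 0.0836, 95% interval -0.21 to 0.13, edgeR adjusted p = 0.669). For PDHB the 786-O-VHL libraries lay on either side of 786-O-Ctrl. Neither interval reached the changes estimated for PDK1, PDK2, PDK4 and PDP1, and smaller changes remain possible. On the opposite strand MAP3K15, at or below 2.14 CPM in every library, shares 19.3% of the exon bases of PDHA1. PDHA1 and PDHB pair in the E1 enzyme, and the PDHA1 count per PDHB count was 2.14 and 2.01 against 1.65 and 2.17, which overlapped.

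DLAT (ENSG00000150768.15, chr11:111896132-111935128, plus strand), the E2 core of the complex, did pass. It was counted 1510 and 1043 times in 786-O-Ctrl against 150 and 868 times in 786-O-VHL, or 71.7 and 69.3 CPM against 50.9 and 51.5 CPM. Replicates lay within a few CPM of each other and the groups stood apart. The log2 fold change was -0.46 (SE 0.0762, 95% interval -0.61 to -0.30, edgeR adjusted p = 6.81e-06), a level of 72.8% of that in 786-O-Ctrl. The PDHA1 counts per DLAT count were 1.71 and 1.66 in 786-O-Ctrl against 2.08 and 2.22 in 786-O-VHL. PIH1D2 on the opposite strand shares 13.3% of the exon bases of DLAT and stayed at or below 2.03 CPM in every library.

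Both carriers were called, in opposite directions, with less stable calls. MPC1 (ENSG00000060762.19, chr6:166778407-166796501, minus strand) was counted 139 and 125 times in 786-O-Ctrl against 27 and 200 times in 786-O-VHL, or 6.60 and 8.31 CPM against 9.16 and 11.9 CPM. The groups did not overlap, although the nearest libraries of the groups were closer than the replicates of either. MPC1 had a log2 fold change of 0.61 (SE 0.186, edgeR adjusted p = 0.00549). Its call was lost without replicate 2 of 786-O-VHL (0.31, adjusted p = 0.465) and without the deeper 786-O-Ctrl library (0.42, adjusted p = 0.170), with DESeq2 and under both forms of thinning.

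MPC2 (ENSG00000143158.11, chr1:167885913-167906310, minus strand) measured 36.0 and 35.5 CPM in 786-O-Ctrl against 30.9 and 27.3 CPM in 786-O-VHL. Each 786-O-VHL library was lower. Its log2 fold change was -0.35 (SE 0.103, edgeR adjusted p = 0.00442), and the call was lost without replicate 2 of 786-O-VHL (-0.22, adjusted p = 0.270) and without the deeper 786-O-Ctrl library (-0.33, adjusted p = 0.0733), with library totals alone, with DESeq2 and under both forms of thinning. DCAF6, on the opposite strand, shares 575 exon bases with MPC2 (21.8% of its exons), measured 113 CPM in each 786-O-Ctrl library against 86.1 and 91.5 CPM in 786-O-VHL, and fell by 0.33 on the log2 scale (edgeR adjusted p = 0.000124). The part of reads from DCAF6 in the MPC2 value was not tested. MPC2 counts per MPC1 count were 5.46 and 4.27 against 3.37 and 2.30.

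**Figure D3:**
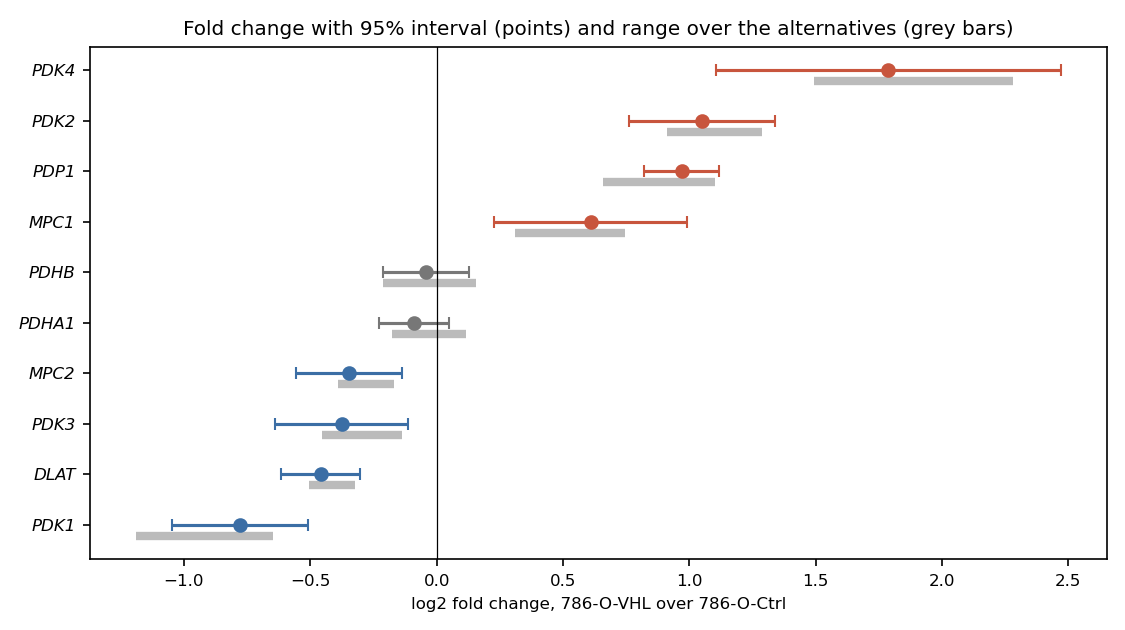
log2 fold change of 786-O-VHL over 786-O-Ctrl for each pyruvate entry gene (points, coloured by call, with 95% intervals) and the range of the estimate over 12 alternative settings, 11 for PDK4 (grey bars). PDK4, PDK2 and PDP1 lie at 1.79, 1.05 and 0.97, PDK1 and DLAT at -0.78 and -0.46, and the bars of PDHA1 and PDHB cross 0.

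Libraries did not overlap between groups for 9 of the 10 genes, which was also the case for 80.0% of all genes tested. PDHA1 was among the 9 by less than 1 CPM.

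The other components of the complex gave 1 call among 4 genes, beside 64.5% of all genes called. PDP2, the second phosphatase, was higher in 786-O-VHL, at 22.5 and 21.1 CPM against 31.5 and 37.2 CPM (log2 fold change 0.71, SE 0.109, edgeR adjusted p = 1.99e-06). PDHX, which binds E3 to the core, had a log2 fold change of 0.090, DLD, the E3 subunit, of -0.085, and PDPR, a regulator of PDP1, of 0.11, and none passed. PDHX counts per DLAT count were 0.564 and 0.604 in 786-O-Ctrl against 0.800 and 0.869 in 786-O-VHL.

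Genes that supply pyruvate or take it elsewhere had 13 of 16 members measured, of which 6 were lower and 2 higher, with a median log2 fold change of -0.32. Their share called was no larger than the 64.5% of all genes. LDHA, which turns pyruvate into lactate, measured 1824 and 1825 CPM in 786-O-Ctrl against 876 and 822 CPM in 786-O-VHL (log2 fold change -1.11, SE 0.0603, edgeR adjusted p = 2.51e-15). PKM, the pyruvate kinase gene, had a log2 fold change of -1.07, the lactate exporter SLC16A3 of -0.78 and the alanine aminotransferase GPT2 of 0.69, all called. LDHA counts per PDHA1 count were 14.9 and 15.9 in 786-O-Ctrl against 8.28 and 7.18 in 786-O-VHL.

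All 6 genes of acetyl-CoA use passed the test, 4 lower and 2 higher, beside 64.5% of all genes called (31.9% lower), and their median log2 fold change was -0.76. Citrate synthase CS (-0.86), the citrate carrier SLC25A1 (-0.84) and ATP-citrate lyase ACLY (-0.68) were lower. ACSS1, a mitochondrial acetyl-CoA synthetase, was higher (1.10), at 4.32 CPM in each 786-O-Ctrl library against 8.82 and 9.44 CPM in 786-O-VHL.

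Of 17 measured genes that make or load the lipoate and thiamine cofactors used by DLAT and E1, 8 were higher and 4 lower, with a median of 0.031, beside 32.6% of all genes higher and 31.9% lower. LIAS, the lipoate synthase, rose (log2 fold change 0.99), from 16.1 and 15.7 CPM to 30.9 and 32.1 CPM. The genes of mitochondrial fatty acid synthesis were split. OXSM (0.78), CBR4 (0.56) and MECR (0.27) were called higher, and MCAT (-0.38) and NDUFAB1 (-0.29) lower. Of the iron-sulfur cluster genes, BOLA3 (-0.99) and GLRX5 (-0.58) fell, and ISCA1 (0.23) and ISCA2 (0.30) rose. NFU1 (-0.22) and IBA57 (-0.15) were not called. The sister dehydrogenases, which share the cofactors and the E3 subunit, had 8 of 9 members measured, 3 higher and 1 lower, fewer called than the 64.5% of all genes, with a median of -0.019. OGDHL, a 2-oxoglutarate dehydrogenase paralog, was counted 31 and 22 times in 786-O-Ctrl against 122 and 453 times in 786-O-VHL, and its log2 fold change of 4.40 (SE 0.219, edgeR adjusted p = 3.34e-16) was the largest in these lists. Of the genes of branched-chain keto acid oxidation, DBT (0.58) and PPM1K (0.67) were higher, and BCKDHB (-0.064) and BCKDK (-0.12) were not called. DLST, the E2 of the 2-oxoglutarate complex, was lower (-0.26).

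Transcription factors and coactivators known to act on PDK genes had 13 of 13 members measured, 9 higher and the other 4 not called, beside 64.5% of all genes called and 32.6% higher, with a median log2 fold change of 0.42. EPAS1, which codes for HIF-2alpha, measured 318 and 330 CPM in 786-O-Ctrl against 813 and 856 CPM in 786-O-VHL (log2 fold change 1.37, edgeR adjusted p = 3.22e-17). HIF1A (1.35), MYC (1.41) and PPARG (0.82) were also higher as mRNA, which says nothing of their proteins. By Western blot, the paper reports less HIF-2alpha protein in 786-O cells given VHL. PPARGC1A, a coactivator known to raise PDK4, was named after its values were seen. It was counted 9 and 15 times in 786-O-Ctrl against 24 and 87 times in 786-O-VHL (log2 fold change 3.12, SE 0.383, edgeR adjusted p = 4.66e-08). A part of PPARGC1A in the PDK4 level was not tested. The 4 factors not called were ESRRA (0.16), PPARD (0.012), RXRA (-0.068) and ARNT (-0.17). Over these 6 lists, 61 of 67 genes were measured and tested, 25 were higher and 15 lower, a share near the 64.5% of all genes called, and the median log2 fold change was 0.031 beside 0.017 for all genes.

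**Figure D4:**
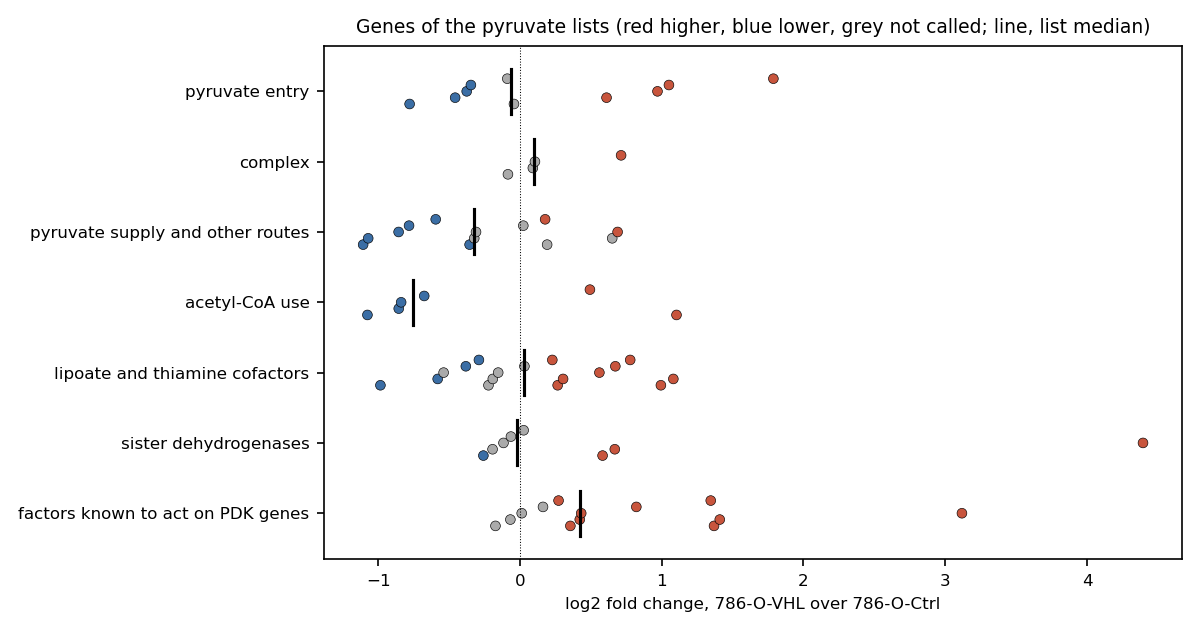
log2 fold change of 786-O-VHL over 786-O-Ctrl for each measured gene of the pyruvate entry set and the 6 other lists, 1 point per gene, red for higher, blue for lower and grey for not called, with a black line at the list median. The medians run from -0.76 for acetyl-CoA use to 0.42 for the factors, and OGDHL lies farthest out at 4.40.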

How the data were processed

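Per the labels, total RNA of both sublines (2 libraries each) was made into Illumina TruSeq libraries. The submitters' processing notes name CASAVA, STAR and hg19. The authors deposited raw read counts per gene, not normalized. The notes give no versions, and the sources used here do not name the program that counted reads, its strand setting or its annotation.

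Differential expression was tested in edgeR 4.0.16 (R 4.3.3): filterByExpr (minimum count 10) removed 577 genes and left 12335, libraries were scaled by TMM (factors 0.951 to 1.05), and the quasi-likelihood F test had the group as its only term. The biological coefficient of variation was 4.31%. Of symbols on several Ensembl identifiers (84 repeats), the one with most counts was used. Coordinates, exons and overlaps came from a GRCh37 annotation (12749 identifiers matched). A level of 3 counts, the limit a count of 0 allows, was 0.142 to 1.02 CPM and covers counting error only. Alternatives were RLE factors, library totals alone, DESeq2 1.42.0, limma-voom (limma 3.58.1), no filter, at least 10 counts in every library, thinning to the shallowest library with edgeR's thinCounts, and each library left out. Binomial thinning and the lengths of all exons were added after seeing the data.

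The 10 genes and the other lists were chosen with earlier results of these data known. All 10 are described. Of each other list at most 4 called genes with the smallest p are named, with any gene counted alone. The 3 genes nearest to PDK1 in Euclidean distance are named. Further members of a list, called or not, were added where the named genes alone would show only part of a class. Other exceptions are stated. The start of PDP1 was not analysed here.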

Additional observations from a re-analysis of the deposited data

How the results depend on the processing

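No paired analysis was possible because both 786-O-Ctrl columns carry the same replicate number, so they cannot be matched to the numbers of 786-O-VHL. Over 12 alternative settings, 94 of 119 fold changes of the 10 genes kept their direction and their side of the threshold, and the cause of the others was not tested. The 4 lower genes became 2 with library totals alone, with DESeq2 and after binomial thinning, and ranged from 2 (without 786-O-VHL replicate 2) to 4 when 1 library was left out, where a lone sample is assumed to vary like the other group. PDHA1 changed sign with library totals (log2 fold change 0.043), and PDHB with library totals (0.090), after binomial thinning (0.054) and without 786-O-VHL replicate 2, its leave-one-out range being -0.12 to 0.16. Library totals moved the median log2 fold change of all genes from 0.017 to 0.15 and the share of higher genes among the calls from 50.5% to 62.1%.

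Thinning with edgeR's thinCounts gave a common dispersion of 0.0396 and far fewer calls: 1 gene higher (PDP1) and 0 lower of the 10, 7 higher and 7 lower in the other lists, and 978 and 1254 over all genes, with PDHA1 at 0.12 on the log2 scale. Binomial thinning, with a dispersion of 0.00227, was added after this result was seen, and called 3 of the 10 higher and 2865 and 2885 genes in all. PDK shares depended on length. Without division by length, and with the value of 786-O-Ctrl first, they were 40.6% and 23.2% for PDK1 and 39.9% and 33.3% for PDK3, with 8.01% for PDK4 in 786-O-VHL. Per kilobase of all exons they were 31.6% and 13.3% for PDK1, 36.5% and 55.4% for PDK2, 26.4% and 16.3% for PDK3, and 5.49% and 15.0% for PDK4. PDK4 had 14 counts in 2 of the libraries.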
